A study of Mus musculus with 6 samples.

Results

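Laminin chains, anchoring collagens and hemidesmosome plakins were examined in primary mouse keratinocytes, the main cells of the epidermis, with and without recombinant IL-33, an interleukin. The 9 genes were Lama3, Lamb3, Lama5, Lamb1, Lamc1, Col17a1, Col7a1, Plec and Dst, taken by symbol from the 52550 genes of the deposited gene table, and for Plec, Dst and Lama3 the single transcripts were followed as well. All 9 passed the filter on low counts, which left 15778 genes to test. Both groups were wild type C57BL/6 cells from the skin epidermis of pups 0 to 2 days old, grown for 2 days after the epidermis had been peeled off with Dispase II. The untreated group and the group given IL-33 for 12 h had 3 libraries each, and the dose was not stated in the labels. Whether libraries of a group were separate cultures or animals is not labelled either, and p-values therefore describe the variation among the 6 libraries, part or all of which may be technical.

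Keratinocytes of the basal layer build the basement membrane under them and hold on to it. A laminin is a trimer of an α, a β and a γ chain. The products of Lama3 and Lamb3 are chains of the laminin that binds the hemidesmosome, and those of Lama5, Lamb1 and Lamc1 form a more widespread basement membrane laminin. In the hemidesmosome the integrin chains Itga6 and Itgb4 and the transmembrane collagen Col17a1 reach outwards to laminin, while the plakins encoded by Plec (plectin) and Dst (the bullous pemphigoid antigen, dystonin) tie them to keratin filaments inside the cell. Col7a1 encodes the collagen of the anchoring fibrils below the membrane. Inherited loss of several of these proteins causes skin blistering.

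The libraries held 34188173 to 45266298 deposited counts, and the shallowest was IL-33 replicate 2. About 4 deposited counts were taken as 1 sequenced fragment, an assumption that gives 8547043 to 11316574 fragments per library. Fragment numbers below rest on it. Levels below are CPM, the deposited counts scaled to the library total and between libraries. The 4 basal keratinocyte markers summed to 32334 to 33472 CPM in untreated cells and 32795 to 35224 CPM with IL-33, against 10.7 to 11.5 and 8.98 to 12.4 CPM for 5 suprabasal markers, and Krt15 alone among the basal markers was near 1 CPM. The 5 melanocyte markers summed to 1094 to 1147 CPM in untreated cells and 1093 to 1187 CPM with IL-33. Neural and Schwann markers summed to 29.8 to 34.7 and 28.2 to 34.1 CPM, endothelial markers, with Emcn at 0, to 13.6 to 19.2 and 16.1 to 16.7 CPM. Immune markers, with Cd207, Cd3e and Cd3g at 0, stayed at or below 3.10 CPM, and muscle markers, with Myh3 and Myh8 at 0, at or below 0.894 CPM. In bulk RNA, fewer cells of a type and less RNA per cell cannot be told apart.

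The bases just upstream of the RefSeq starts of some of these genes are printed here. These are annotated starts, and where transcription starts in these cells was not tested. The results turn on Dst, whose annotated transcripts start at several places. They also turn on Lamb1 and Lama5, the laminin chains among the 9 genes with the lowest IL-33 to untreated ratios. Col17a1 is added as the member with the highest level per length. The sequences are from RefSeq on GRCm38.p6, read 5′ to 3′ on the strand of the gene and stopped before any annotated exon. Capitals mark matches to CCAAT or TATAAA on either strand.
Dst, upstream start, chr1:34011345-34011594, plus strand: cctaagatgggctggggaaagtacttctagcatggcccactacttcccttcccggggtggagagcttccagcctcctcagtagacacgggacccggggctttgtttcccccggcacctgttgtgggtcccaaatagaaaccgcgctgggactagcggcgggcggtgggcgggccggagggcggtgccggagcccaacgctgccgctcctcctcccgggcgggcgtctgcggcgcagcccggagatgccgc
Dst, start near transcript Dst-213, chr1:34160010-34160259, plus strand: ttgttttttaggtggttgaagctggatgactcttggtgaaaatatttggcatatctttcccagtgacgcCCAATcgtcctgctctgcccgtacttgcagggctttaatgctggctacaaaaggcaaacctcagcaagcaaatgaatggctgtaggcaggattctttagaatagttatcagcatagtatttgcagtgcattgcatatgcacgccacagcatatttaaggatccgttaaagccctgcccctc
Lamb1, chr12:31265043-31265233, plus strand: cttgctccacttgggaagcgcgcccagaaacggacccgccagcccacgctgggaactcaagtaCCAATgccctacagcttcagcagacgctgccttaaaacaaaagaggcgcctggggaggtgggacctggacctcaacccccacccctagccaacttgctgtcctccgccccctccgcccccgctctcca
Lama5, chr2:180225860-180226109, minus strand: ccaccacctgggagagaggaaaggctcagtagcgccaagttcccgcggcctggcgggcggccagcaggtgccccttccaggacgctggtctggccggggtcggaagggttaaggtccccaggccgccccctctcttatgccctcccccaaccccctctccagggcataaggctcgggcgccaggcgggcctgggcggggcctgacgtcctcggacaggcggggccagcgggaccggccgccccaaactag
Col17a1, chr19:47692095-47692292, minus strand: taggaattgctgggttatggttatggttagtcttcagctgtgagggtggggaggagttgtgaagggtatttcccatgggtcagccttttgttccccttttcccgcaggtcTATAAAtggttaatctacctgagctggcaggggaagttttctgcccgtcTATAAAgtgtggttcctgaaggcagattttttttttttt
The transcript nearest the upstream Dst start, Dst-202, held a mean of 0.0031% of the Dst counts in untreated cells and 0.013% with IL-33. The pair of Dst windows differed in base composition, with 68.8% G and C at the upstream start and 45.2% at the start next to Dst-213, which lies 70 bases further downstream. The CCAAT match of that second Dst window was at position -181 from the RefSeq start, and that of Lamb1 at -187. Col17a1 held TATAAA at -140 and -91 and CCAAT at -31, the last within exon bases that are not printed. The table also matched Lamb3, with no match to a motif, and Col7a1, with CCAAT at -249. Lamc1 and Plec had no entry, and Lama3 was left out of the search. The 4 motifs were searched on both strands of the 250 bases before each start, and in all 32851 RefSeq windows of 250 bases CCAAT was found in 33.8%, TATAAA in 12.4%, the AP-1 motif TGANTCA in 6.75% and the NF-kB motif in 0.356%. AP-1 and NF-kB had no match in the windows of the 6 members searched, which says only that these letters are not there.

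With IL-33, none of the 9 genes passed an adjusted p of 0.05 in edgeR's quasi-likelihood test, a threshold passed by 0.0697% of the 15778 genes. The log2 fold change, IL-33 minus untreated, was below 0 for 7 of the 9, against 49.5% of all genes, and its median was -0.13, against 0.00 over all genes. At an unadjusted p under 0.05, 4 members were lower (3.31% of all genes were) and Dst was higher (3.42%). The 3 IL-33 libraries lay wholly below the 3 untreated ones for Lama3, Lama5 and Lamb1, as for 6.26% of all genes, and wholly above them for Dst, as for 7.39%. The 9 genes together took 6173 to 6409 CPM in untreated cells and 6020 to 6283 CPM with IL-33, which overlap.

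**Figure D1:**
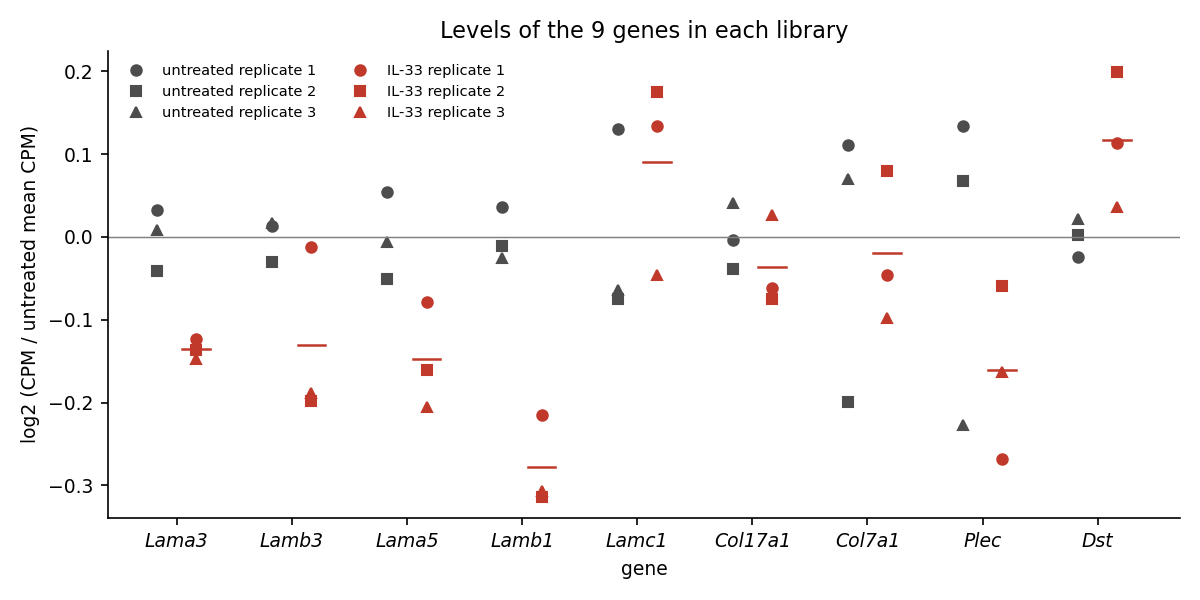
Level of each of the 9 genes in every library as log2 of its CPM over the mean CPM of the untreated libraries, with grey points for untreated, red points for IL-33 and a red line at the IL-33 mean. The groups do not overlap for Lama3, Lama5 and Lamb1, where IL-33 is lower, nor for Dst, where it is higher.

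**Figure D2:**
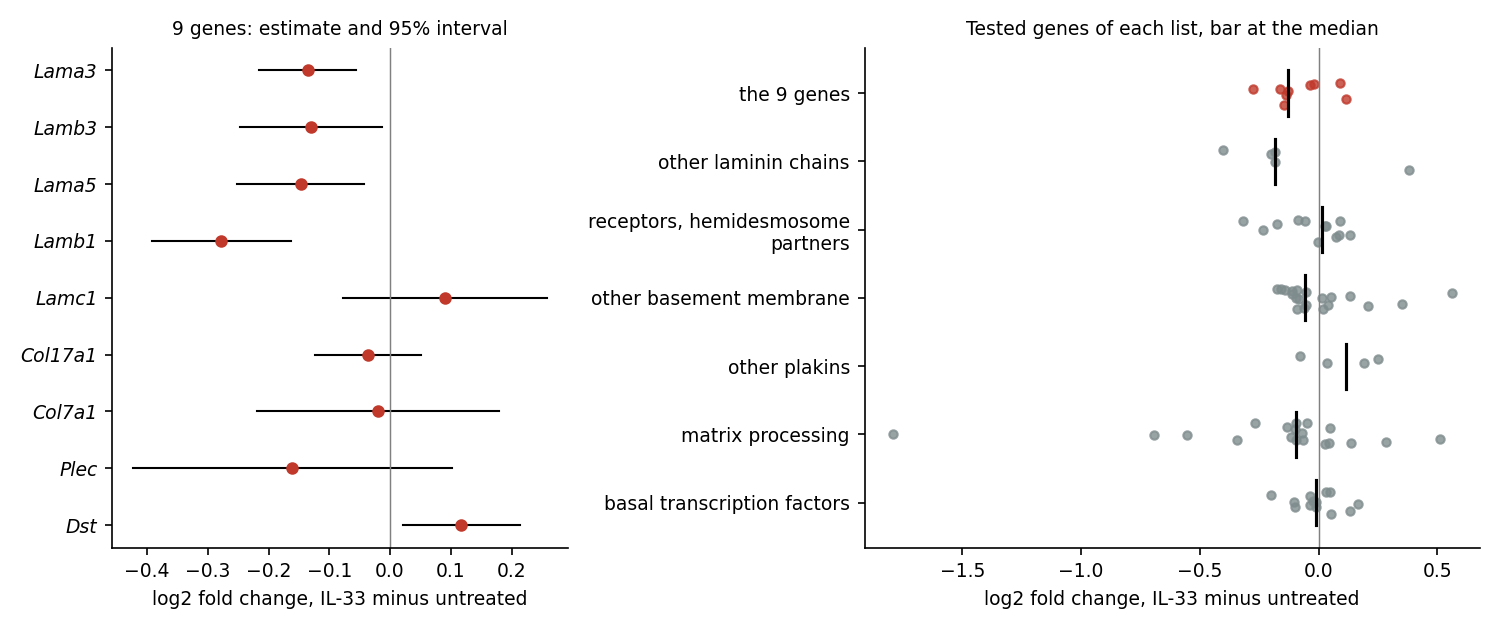
Left, log2 fold change (IL-33 minus untreated) of the 9 genes with 95% intervals from edgeR's quasi-likelihood fit. Right, the log2 fold changes of the tested genes of each list, one point per gene, with a bar at the median, from -0.28 for Lamb1 to 0.12 for Dst among the 9 genes.

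Among the 5 laminin chains of the 9 genes, Lamb1 (ENSMUSG00000002900.16, chr12:31265234-31329644, plus strand), which encodes the β1 chain, had the lowest IL-33 to untreated ratio. Gene positions here and below are those of GENCODE on GRCm38 and span exons and introns. The Lamb1 level was 129, 125 and 124 CPM in untreated replicates 1, 2 and 3 and 108, 101 and 102 CPM in IL-33 replicates 1, 2 and 3. Every IL-33 library was below every untreated one, with means of 126 ± 2.82 and 104 ± 3.98 CPM (SD, n = 3), 17.5% lower. The log2 fold change was -0.28 (SE 0.051, 95% interval -0.39 to -0.16), with an adjusted p of 0.236 in edgeR's quasi-likelihood test. DESeq2 gave 0.00821, the only call for any member under any of the 19 settings tried, over which the adjusted p of Lamb1 ran from 0.00821 to 0.631. The 7 fibroblast markers, whose cells also make this chain, summed to 30.1 to 38.3 CPM in untreated cells and 26.6 to 31.0 CPM with IL-33, and of the 5 that could be tested 2 had a log2 fold change below 0 and 3 above, with a median of 0.05. Col1a1 stood at 7.70 ± 4.31 and 3.38 ± 0.887 CPM, with no overlap. Col1a2 was lower too, at 6.17 and 5.15 CPM, with overlap. Col3a1 was at 5.04 and 5.80 CPM, Dcn at 4.70 and 5.24 CPM and Pdgfra at 8.95 and 9.24 CPM, with overlap. Their part in the Lamb1 values was not tested.

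Lama3 (ENSMUSG00000024421.16, chr18:12333819-12583013, plus strand), which encodes the α3 chain of the hemidesmosomal laminin, was at 613, 582 and 603 CPM in the untreated libraries and 550, 545 and 541 CPM with IL-33. The IL-33 libraries lay close together, below all 3 untreated ones, with means of 599 ± 15.6 and 545 ± 4.64 CPM (SD, n = 3). The log2 fold change was -0.14 (SE 0.036, 95% interval -0.22 to -0.06), with an adjusted p of 0.518 in edgeR's quasi-likelihood test. Its partner Lamb3 (ENSMUSG00000026639.18, chr1:193207699-193343878, plus strand), the β3 chain, was at 537, 521 and 538 CPM against 528, 464 and 467 CPM. IL-33 replicate 1 lay within the untreated range and replicates 2 and 3 below it, and the adjusted p was 0.740 at a log2 fold change of -0.13 (edgeR), which was -0.20 without IL-33 replicate 1. Lama5 (ENSMUSG00000015647.9, chr2:180176373-180225859, minus strand), the α5 chain, was at 351, 327 and 337 CPM in untreated cells and 320, 303 and 293 CPM with IL-33. Its groups did not overlap, and the log2 fold change of -0.15 (SE 0.047) had an adjusted p of 0.669 in edgeR's test.

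Lamc1 (ENSMUSG00000026478.14, chr1:153218922-153332786, minus strand), the γ1 chain that pairs with the products of Lama5 and Lamb1, was not among the lower genes. It stood at 169, 147 and 148 CPM in untreated cells and 169, 174 and 150 CPM with IL-33, and the groups overlapped. The log2 fold change was 0.09 (95% interval -0.08 to 0.26), with an adjusted p of 0.854 in edgeR's test. With 1 library left out it ran from 0.05 (without IL-33 replicate 2) to 0.16 (without IL-33 replicate 3). Within each library, the ratio of Lamb1 to Lamc1 was 0.763, 0.852 and 0.837 in untreated cells and 0.640, 0.581 and 0.680 with IL-33. The IL-33 ratios were all lower, by 0.37 on the log2 scale, with an exact two-sided permutation p of 0.1, the smallest that 3 against 3 can give, and 0.2 after adjustment over the 6 ratios computed. The ratio of Lama5 to Lamc1 was lower in every IL-33 library too, by 0.24 on the log2 scale, with the same exact p. The ratio of Lamb3 to Lama3 differed by 0.00 on that scale (exact p of 1). It was 0.877, 0.895 and 0.892 in untreated cells and 0.959, 0.851 and 0.863 with IL-33. IL-33 replicate 1 thus lay above the untreated ratios and replicates 2 and 3 below them.

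Among further laminin chains, none had a call at an adjusted p of 0.05. Lamb2, the β2 chain, was at 36.7 CPM in untreated cells and 32.3 CPM with IL-33, a log2 fold change of -0.18 (adjusted p of 0.740, edgeR). Lama4, an α chain of vessels and muscle, was at 6.59 and 8.59 CPM (adjusted p of 0.763, edgeR).

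For both anchoring collagens the groups overlapped. Col17a1 (ENSMUSG00000025064.14, chr19:47646344-47692094, minus strand), the transmembrane collagen, was at 1351, 1319 and 1394 CPM without and 1299, 1286 and 1380 CPM with IL-33. IL-33 replicates 1 and 2 lay below every untreated library and replicate 3 within their range, and the log2 fold change of -0.04 had a 95% interval of -0.12 to 0.05 (adjusted p of 0.898, edgeR). Col7a1 (ENSMUSG00000025650.12, chr9:108953586-108984875, plus strand) was at 75.4, 60.8 and 73.2 CPM without and 67.6, 73.8 and 65.2 CPM with IL-33. Its log2 fold change was -0.02 with a wider interval of -0.22 to 0.18 (adjusted p of 0.979, edgeR), and untreated replicate 2 was the lowest of all 6 libraries. Col7a1 was the least deeply read member, with 628 to 843 fragments per library.

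Dst (ENSMUSG00000026131.18, chr1:33908225-34308661, plus strand), the plakin that links the hemidesmosome to keratin, had higher values in the IL-33 libraries. It was at 1882, 1918 and 1943 CPM in untreated cells and 2070, 2198 and 1963 CPM with IL-33. The groups did not overlap, although IL-33 replicate 3 was only just above the highest untreated library. The means were 1915 ± 30.6 and 2077 ± 118 CPM (SD, n = 3), and the log2 fold change of 0.12 (SE 0.043, 95% interval 0.02 to 0.21) had an adjusted p of 0.740 in edgeR's test. Without IL-33 replicate 2 the log2 fold change was 0.07. The antisense-strand gene Gm26788, which overlaps Dst, stood at 156 ± 13.9 and 173 ± 18.9 CPM, at most 8.76% of the Dst value. The overlap is one of whole gene spans, introns included, and the labels do not say whether counting used strand. Whether reads of Gm26788 were counted for Dst, or the reverse, was not tested. The antisense gene Gm29200 over Lama3 was at most 3.01% of Lama3.

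Plec (ENSMUSG00000022565.15, chr15:76170974-76232574, minus strand), plectin, was at 1301, 1243 and 1014 CPM in untreated cells and 985, 1138 and 1059 CPM with IL-33. Untreated replicate 3 lay among the IL-33 libraries. The log2 fold change was -0.16 with a wide 95% interval of -0.42 to 0.10, and the adjusted p was 0.817 in edgeR's test. Its log2 fold change was -0.10 without untreated replicate 1 and -0.26 without untreated replicate 3. Plec had the widest spread between untreated libraries of all 9 genes, with a coefficient of variation of 12.8%, against 1.60% for Dst. Within libraries, the ratio of Plec to Dst differed by -0.27 on the log2 scale (exact two-sided permutation p of 0.2, 0.24 adjusted over 6 ratios).

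The other plakin genes gave 3 of 4 tested genes above 0, with no adjusted call. Ppl, periplakin, was at 97.5 CPM without and 116 CPM with IL-33, and Evpl, envoplakin, at 66.0 and 75.4 CPM, both with p under 0.05 unadjusted and adjusted p of 0.740 and 0.710 in edgeR's test. Dsp, desmoplakin of the desmosome, was at 2652 and 2718 CPM.

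The receptors and hemidesmosome partners gave no adjusted call among 12 tested genes. Their log2 fold changes were below 0 for 6 and above 0 for 6, with a median of 0.01. At an unadjusted p under 0.05 in edgeR's test, 3 were lower (Itga3, Itgb4 and Itgb1) and 1 was higher. The higher one was Ctnnd1, at 640 CPM without and 679 CPM with IL-33. Ctnnd1 was on the list as set, but it encodes a catenin of cell-cell junctions, not a receptor or a hemidesmosome part. The laminin receptor chain Itga3 had the lowest log2 fold change of them, -0.32 (adjusted p of 0.0768, edgeR; 6.57e-05 in DESeq2, 0.0114 in edgeR with no filter, and 0.0273 and 0.0261 in edgeR without IL-33 replicate 1 or 3), and Itgb4, the integrin chain of the hemidesmosome, had -0.23 (adjusted p of 0.575, edgeR). Of the other basement membrane and anchoring zone genes, 12 of 20 tested were below 0 and 8 above. Col18a1, a collagen of basement membranes, was at 558 CPM without and 494 CPM with IL-33 (adjusted p of 0.490, edgeR). Npnt had the highest log2 fold change of that list, 0.56, at 6.16 CPM without and 9.09 CPM with IL-33 (adjusted p of 0.741, edgeR). Genes that process laminins and collagens were below 0 in 13 of 19, with none called. P4hb, a subunit of the enzyme that hydroxylates collagen, was at 456 and 425 CPM, and Bmp1, a protease that cuts laminin and collagen precursors, at 62.2 and 56.8 CPM, neither passing the adjusted test. Transcription factors of the basal layer were below 0 in 8 of 13, with Klf5 at 105 and 116 CPM and Fosl1, an AP-1 member, at 36.3 and 31.6 CPM. Similar profiles were searched among 3378 other genes with a mean level at or above that of the lowest member, 69.3 CPM. Across the 6 libraries, Cers2, Nup153 and Smad3 had the centred log2 profile closest to the mean of the 9 genes. Their root mean square differences were 0.0158, 0.0163 and 0.0167.

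Levels between genes are compared per length, as FPKM (fragments per kilobase of feature, scaled to depth). Col17a1 led with a gene FPKM of 211 ± 6.26 in untreated cells (SD, n = 3), followed by Lamb3 at 72.4 ± 1.47, Plec at 58.9 ± 7.50, Lama3 at 50.2 ± 1.40, Dst at 41.8 ± 0.682, Lama5 at 26.7 ± 1.02, Lamc1 at 16.8 ± 1.39, Lamb1 at 11.4 ± 0.260 and Col7a1 at 6.10 ± 0.699. Among neighbours in that order, only the untreated libraries of Plec and Lama3 overlapped. The order changed when the FPKM of a gene's transcripts was summed instead, a choice made after the values were seen. Dst then stood at 200.3, next to Col17a1 at 223. The untreated libraries of Dst (196.3 to 204.6) and Col17a1 (215.3 to 228.7) did not overlap. Its sum was 4.81 times its gene FPKM, and the exons of all 20 Dst transcripts together span 41155 bases, against 8788 bases in its main transcript. The sum was 1.93 times the gene FPKM for Lama3 and 1.03 times for Lama5. Lamc1 differed in direction between the measures, with a gene FPKM of 16.8 untreated and 17.9 with IL-33, and a transcript sum of 27.8 and 20.1.

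**Figure D3:**
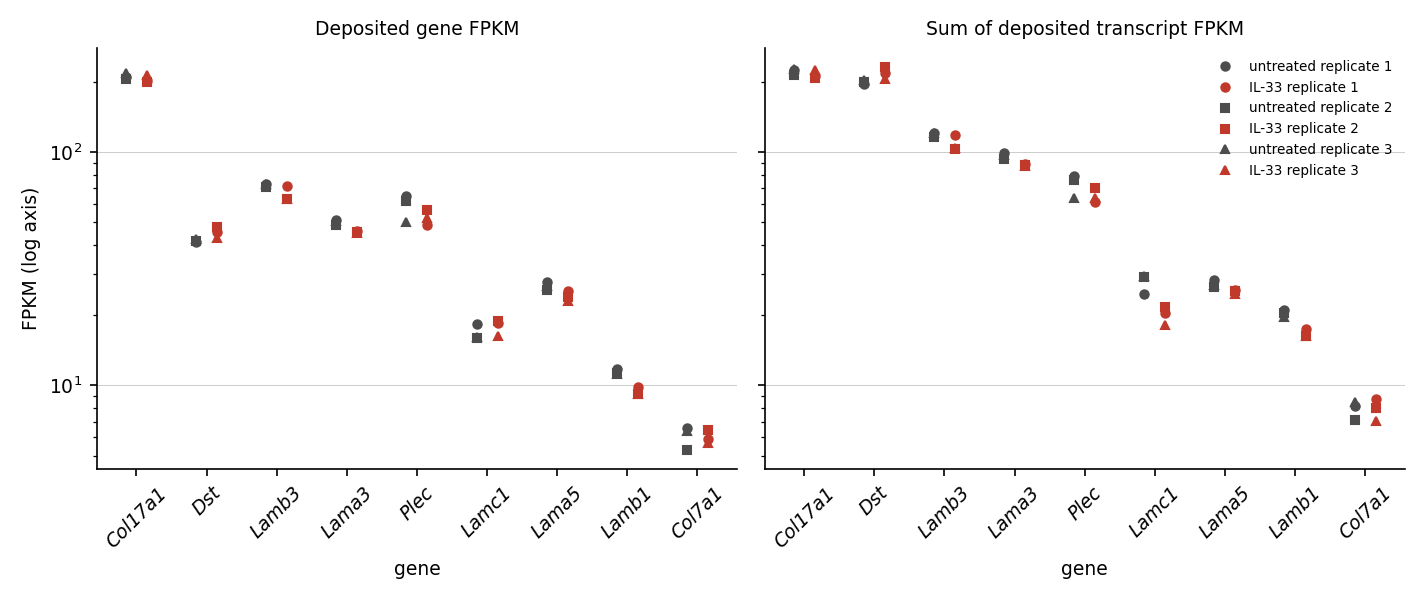
FPKM of the 9 genes in every library on a log axis, as deposited per gene (left) and as the sum over the deposited transcripts (right), with grey points for untreated and red points for IL-33. Dst moves from 41.8 to 200.3 in untreated cells between the measures, and Col17a1 from 211 to 223.

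Single transcripts were estimated by the authors from reads that transcripts share. For Lama3, Lama3-202 of 5551 bases held 99.7% to 99.9% of the counts in every library, and the longer Lama3-201 of 10548 bases was at 1.39 ± 0.253 CPM in untreated cells and 0.885 ± 0.324 CPM with IL-33 (adjusted p of 1.0, edgeR). Lama3 is known for a short and a long form of its α3 chain, and the 2 transcripts differ in length. For Dst, Dst-213 held 89.2% ± 0.163 of the counts in untreated cells and 89.2% ± 0.348 with IL-33 (SD, n = 3). Its log2 fold change of 0.11 (adjusted p of 1.0 in edgeR's test over 40163 transcripts, of which 0.0299% were called) was close to that of the whole gene. The longer Dst-215 held 3.29%, 3.64% and 2.85% of the counts in untreated libraries and 2.03%, 2.15% and 2.22% with IL-33. These shares did not overlap, with an exact two-sided permutation p of 0.1. The level of Dst-215 was 62.8 ± 7.31 CPM in untreated cells and 44.6 ± 2.36 CPM with IL-33, also without overlap, as for 5.54% of all transcripts in that direction and 5.8% in the other. Its log2 fold change of -0.50 had an adjusted p of 0.621 (edgeR). Dst-215 has no base that other Dst transcripts lack, and it was named after its values were seen.

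**Figure D4:**
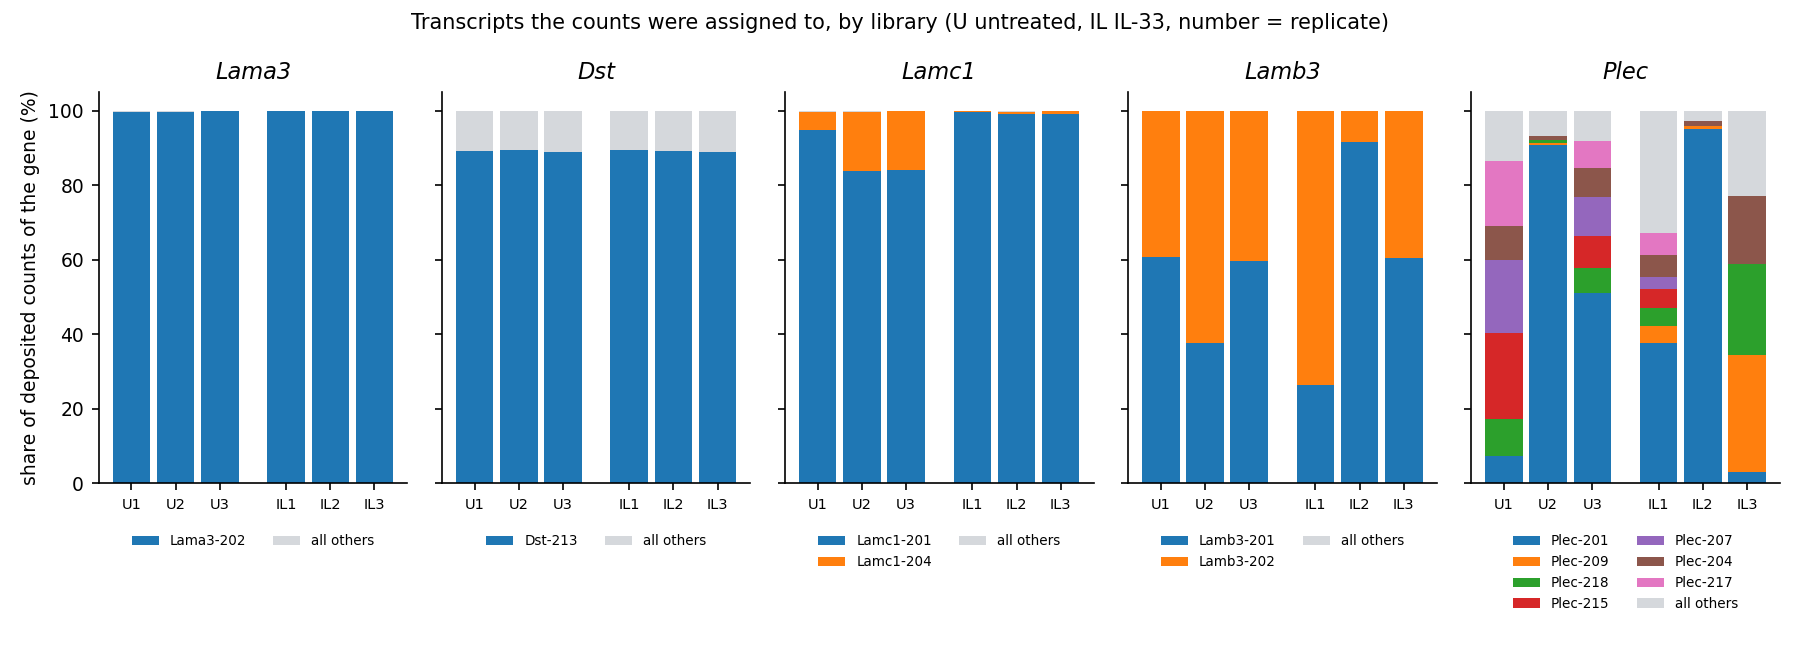
Stacked bars of the share of a gene's deposited counts assigned to each transcript, in percent, for every library of Lama3, Dst, Lamc1, Lamb3 and Plec (U untreated, IL IL-33, with the replicate number). Lama3 and Dst each have 1 leading transcript in every library, while the leading Plec and Lamb3 transcripts differ between libraries of the same group.

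For Plec, the assignment varied widely within each group. Plec-201 held 7.35%, 90.7% and 51.1% of the counts in untreated libraries and 37.7%, 95.0% and 3.09% with IL-33 (exact permutation p of 0.9). The transcript with the largest share was Plec-215 in untreated replicate 1, Plec-209 in IL-33 replicate 3 and Plec-201 in the other 4 libraries. Plec-201 has 287 bases of 15001 that no other of the 22 Plec transcripts shares, and Plec-215 and Plec-209 have 0. Of the 9 Plec transcripts with a mean share of at least 5% in a group, Plec-209 alone had groups that did not overlap (exact permutation p of 0.1). Its shares were 0.00172%, 0.608% and 0.00653% untreated and 4.51%, 0.748% and 31.3% with IL-33. The groups were thus separated only by 0.608% in untreated replicate 2 against 0.748% in IL-33 replicate 2. Its CPM did not overlap either and was higher with IL-33, as for 5.8% of all tested transcripts. Lamb3 was also uneven, with Lamb3-201 at 60.8%, 37.6% and 59.6% untreated and 26.4%, 91.7% and 60.6% with IL-33. The other 4 genes each had the same leading transcript in all 6 libraries, named after their values were seen. Lama5-201 held 99.54% to 99.96% of the Lama5 counts and Lamb1-201 81.3% to 93.7% of those of Lamb1. Col17a1-201 held 71.0% to 75.3% and Col7a1-201 64.9% to 97.8%, and the groups overlapped for all 4. For Plec and Lamb3 the gene value, not the transcript, was used above.

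For Lamc1, transcript Lamc1-204 had 372, 960 and 1054 counts in untreated libraries and 30, 35 and 55 with IL-33. It was lower in every IL-33 library than in any untreated one, where it varied from 372 to 1054, with means of 18.4 ± 8.70 and 0.990 ± 0.285 CPM. The log2 fold change was -4.21 (SE 0.54), with an adjusted p of 0.250 in edgeR's test, 1.25e-09 in DESeq2 and 0.990 in edgeR with the replicate number as a block. All 1447 bases of Lamc1-204 lie inside Lamc1-201, so the counts could belong to either, and Lamc1-201 had a log2 fold change of 0.26 (adjusted p of 1.0, edgeR). Both transcripts were named after their values were seen.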

How the data were processed

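Messenger RNA libraries of 3 untreated and 3 IL-33 samples were used, mapped to groups by the labels. Per the submitters' processing notes, the build was mm10 and the tools included StringTie 1.3.4d, HISAT2 2.1.0, DESeq2 1.18.1 and FastQC 0.11.7. No annotation release is named. Values of the deposited count tables are estimated counts per gene and per transcript, already whole numbers. Low values piled up at multiples of 4 (13893 values of 4 against 11579 of 3 over transcripts and libraries). Values of 1 (30654) and 2 (14702) were more frequent still. The FPKM values were deposited by the authors, per the file headers.

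Gene identifiers were matched to GENCODE release M21 on GRCm38, which may not be the release used by the authors. The test was edgeR 4.0.16 quasi-likelihood (R 4.3.3) on the estimated counts with TMM scaling, filterByExpr at a minimum count of 10 and a robust fit, with Benjamini-Hochberg adjustment over all tested genes or transcripts and a threshold of 0.05. CPM are TMM-scaled, and SD is over 3 libraries. Shares and ratios were compared with exact two-sided permutation tests. Alternatives were other scaling factors, filters, DESeq2 1.42.0, limma 3.58.1, a replicate block, FPKM in place of counts and each library left out in turn.

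The named genes were the 9 members, transcripts of Plec, Dst and Lama3 with a mean share of at least 5% in a group (at most the 6 highest per gene), and up to 4 genes of smallest p per list. The members and lists were chosen with earlier results of these data known. Replicates differed by a median of 1.98 to 2.69 times the sampling value over 12161 genes, so none was a copy. On the same assumption, the depth gives a counting error of 3.99% for Col7a1 at its lowest fragment number, and it covers counting error only. One item of the lists is not reported here.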

Additional observations from a re-analysis of the deposited data

How the results depend on the processing

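The median log2 fold change of the 9 genes kept its direction in every setting, from -0.14 to -0.10. For single members the direction turned only for Col7a1 when a library was left out (-0.12 to 0.033, against -0.02), and the call changed only for Lamb1 with DESeq2. With a library left out, Col17a1 (-0.04) ran from -0.07 to -0.01. The 11 genes called in all became 17 with no filter on low counts, 71 with DESeq2, 4 with limma on FPKM in each of 3 forms, 6 at an adjusted p under 0.01, and 11 to 90 with a library left out (18 when untreated replicate 3 was dropped, 20 for IL-33 replicate 1 and 90 for IL-33 replicate 3). The 12 transcripts called became 539 with DESeq2, 3 with limma-voom, 33 on log2(FPKM + 0.1), 25 without a filter on FPKM, 7 at an adjusted p under 0.01, and 6 to 28 with a library left out (6 when untreated replicate 2 was dropped, 7 for IL-33 replicate 1 and 28 for IL-33 replicate 3). The replicate number as a block gave 8 genes and 0 transcripts; same-numbered libraries had correlated deviations of 0.066, 0.086 and -0.033 over 9315 genes and untreated replicate 3 correlated best with IL-33 replicate 2, so the numbers were not taken as pairs. Transcript directions turned for Plec-218 (0.59; -2.59 with limma-voom, -1.64 with the block, -0.73 on log2(FPKM + 0.1) with or without the filter, -0.029 on log2(FPKM + 1), -1.50 to 1.43 with a library left out) and Lamb3-201 (0.00; 0.0038 with RLE, 0.0073 with upper quartile factors, 0.0033 with totals only, 0.0066 with the stricter filter, 0.0039 with counts divided by 4, -0.41 to 0.32 with a library left out). With a library left out they also turned for Plec-201 (-1.52 to 0.67), Plec-204 (-0.92 to 0.92) and Lamb3-202 (-1.17 to 0.20). Shares, in percentage points, turned for Dst-213 on FPKM (-0.80) and with a library left out (-0.16 to 0.18), Lamb3-201 (-9.17 to 23.5), Lamb3-202 (-23.5 to 9.19), Plec-201 (-29.3 to 16.6), Plec-204 (-2.36 to 5.94) and Plec-218 (-3.32 to 8.97). Levels per length moved by more than 1 SD under another length in 38 of 40 values. The cause of these changes was not tested.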
